A study of Homo sapiens with 6 samples.

Results

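The genes described here encode matricellular proteins, fibronectin and proteins of the extracellular microfibril, and were taken from the expression table by symbol: THBS1, THBS2, SPARC, TNC, CCN1, CCN2, TGFBI, FN1, FBN1 and LTBP2. All 10 were found among the 20442 genes of the table, and all 10 passed the filter on low values. RNA was sequenced from HK-2, a human cell line immortalized from the epithelium of the renal proximal tubule, in 6 libraries, 3 labelled control and 3 labelled HNRNPF overexpression. Both groups were transduced with lentivirus, with a control vector in the one and an HNRNPF vector in the other, from parallel wells of each group. The culture protocol describes 72 h in medium with 30 mM glucose or, as osmotic control, 30 mM mannitol, and the labels do not say which medium each library had. The study calls its replicates biological, while the labels do not say whether they derive from separate cultures, and the p-values rest on the spread of these 6 libraries.

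Matricellular proteins are secreted into the matrix without being its main scaffold. They bind collagens, growth factors and integrins, and change how a cell adheres to and signals from its surroundings. Thrombospondin-1 (THBS1) can release active TGF-beta from its latent complex, and the CCN genes are well-known targets of YAP and TAZ, which act on DNA through TEAD factors. Fibronectin (FN1) forms the fibrils on which other matrix proteins assemble, while fibrillin-1 (FBN1) builds microfibrils, to which latent TGF-beta binding proteins attach. In the kidney, many of these genes are known for their rise in tubulointerstitial fibrosis.

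The RefSeq table of promoters (GRCh38.p14, windows of 300 bases, most of them upstream of the start site) held 9 of the 10 genes, all but CCN1. The core of the TEAD motif, GGAATG on either strand, was in the windows of 5 of these 9, CCN2, THBS1, THBS2, FBN1 and SPARC, where 14.0% of 35116 promoter windows of the same length hold it. The windows of 4 of these genes are shown because they hold the largest rise and the largest fall (THBS2 and FBN1), the paralog of the former (THBS1) and the best known YAP target (CCN2). Capitals mark the TEAD core in either orientation, and each window reads 5′ to 3′ on the strand of its gene.
THBS2, chr6:169253797-169254096, minus strand: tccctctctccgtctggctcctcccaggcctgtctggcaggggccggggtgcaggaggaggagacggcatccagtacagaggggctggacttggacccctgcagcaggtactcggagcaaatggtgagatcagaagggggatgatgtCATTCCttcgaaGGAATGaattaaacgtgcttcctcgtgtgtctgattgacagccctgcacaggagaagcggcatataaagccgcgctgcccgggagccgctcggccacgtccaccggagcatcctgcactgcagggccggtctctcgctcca
THBS1, chr15:39580829-39581128, plus strand: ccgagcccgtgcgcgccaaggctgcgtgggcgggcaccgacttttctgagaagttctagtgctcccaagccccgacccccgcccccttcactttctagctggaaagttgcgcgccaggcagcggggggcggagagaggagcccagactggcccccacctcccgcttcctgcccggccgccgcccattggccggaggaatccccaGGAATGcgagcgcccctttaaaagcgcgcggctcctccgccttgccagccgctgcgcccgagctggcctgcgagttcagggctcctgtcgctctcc
CCN2, chr6:131951323-131951622, minus strand: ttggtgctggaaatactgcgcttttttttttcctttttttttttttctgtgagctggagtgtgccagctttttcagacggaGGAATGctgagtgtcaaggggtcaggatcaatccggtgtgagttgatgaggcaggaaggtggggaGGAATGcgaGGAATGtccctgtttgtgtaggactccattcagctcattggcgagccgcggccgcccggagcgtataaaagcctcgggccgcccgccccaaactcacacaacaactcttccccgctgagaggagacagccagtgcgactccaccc
FBN1, chr15:48644921-48645220, minus strand: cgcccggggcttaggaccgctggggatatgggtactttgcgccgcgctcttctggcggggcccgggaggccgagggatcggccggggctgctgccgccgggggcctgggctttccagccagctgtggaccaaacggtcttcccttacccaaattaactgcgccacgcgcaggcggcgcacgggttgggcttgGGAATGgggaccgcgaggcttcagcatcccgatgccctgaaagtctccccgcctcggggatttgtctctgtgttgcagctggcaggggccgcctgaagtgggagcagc

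CCN2 held 3 copies of the core, which began at -169, -104 and -95 from the start site, all on the strand of the gene. THBS2 held 2 copies, at -103 on the opposite strand and at -91 on its own strand, so that they point away from each other. THBS1 held a single copy at -46 and FBN1 a single copy at -58. Positions count from the start site that the promoter table uses, which for FBN1 lies downstream of the 5′ end of the annotated gene, so that its whole window is inside the gene. TATAAA on either strand was in the windows of CCN2 and THBS2, at -32 and -29, against 11.5% of all windows. The AP-1 motif TGANTCA was in none of the 9 and in 7.71% of all windows, and the SP1 core GGGCGG, on either strand, was in 6 of 9 and in 45.0% of all windows. In the windows shown, matches of different motifs do not overlap, while the GGGCGG matches of CCN2 at -17 and -13 overlap each other. A match is a description of the letters and not of binding. The rise of THBS2 and the fall of FBN1 both occurred in genes with a match, and TNC, which also fell, had none.

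The targeted gene went against the labels. HNRNPF was at 555.18, 563.36 and 588.68 FPKM in the libraries labelled control and at 322.83, 349.84 and 320.8 FPKM in those labelled overexpression (limma adjusted p = 1.07e-04 for a log2 fold change of -0.78, SE 0.061). FPKM count fragments relative to the length of a transcript and the size of the library. The groups did not overlap. Whether transcripts of the lentiviral vector were counted under this symbol was not given in the sources used here, so the value may hold the cells' own transcripts alone. The study gives the same gene identifier for the vector used in HK-2 cells and for that used in mouse podocytes. It does not state the species of the insert, and whether reads of the insert align to human HNRNPF was not tested. By RT-qPCR, the study reports higher HNRNPF in its overexpressing HK-2 cells in high glucose. Whether the labels of these libraries were exchanged was not tested, and every rise and fall given here would reverse if they were. Directions are given by the labels. Between 12396 and 12462 genes were at an FPKM of at least 1 in each library. Pearson's r across genes lay between 0.989 and 0.994 for libraries of one group and between 0.978 and 0.985 for libraries of different groups, on log2(FPKM + 0.1). Epithelial genes such as KRT8 and the renal transcription factor gene PAX8 were expressed in every library, while the proximal tubule receptor gene LRP2 was listed at 0 in all 6 and its partner CUBN at 0.06 FPKM or less. CDH1, the epithelial cadherin, was at 0.07 FPKM or less and ANPEP, a brush border peptidase, at 0.08 FPKM or less.

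The 10 genes were spread over a wide range of levels. As FPKM are scaled by transcript length, levels can be set side by side within a library. CCN1 was the highest, at 2424 to 2518 FPKM in the control libraries and 2299 to 2419 FPKM in those labelled overexpression, among the 29 most abundant genes of the table in every library. FN1 followed, and its rank lay between 29 and 56. TGFBI, SPARC and CCN2 lay between 242 and 690 FPKM, and TNC, THBS1, LTBP2, FBN1 and THBS2 at 73.44 FPKM or less. Together the 10 genes took 0.645% to 0.697% of all FPKM in the control libraries and 0.613% to 0.700% in those labelled overexpression, ranges that overlap.

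The order of the levels was the same in the 3 control libraries: CCN1, FN1, TGFBI, SPARC, CCN2, TNC, THBS1, LTBP2, FBN1 and THBS2. In the 3 libraries labelled overexpression it differed at 2 places. THBS1 stood above TNC, and THBS2 stood above FBN1. Neighbours in the order had ranges that did not overlap, except THBS2 (12.01 to 14.07 FPKM) and FBN1 (11.74 to 12.06 FPKM) in the libraries labelled overexpression, whose ranges touch.

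**Figure D1:**
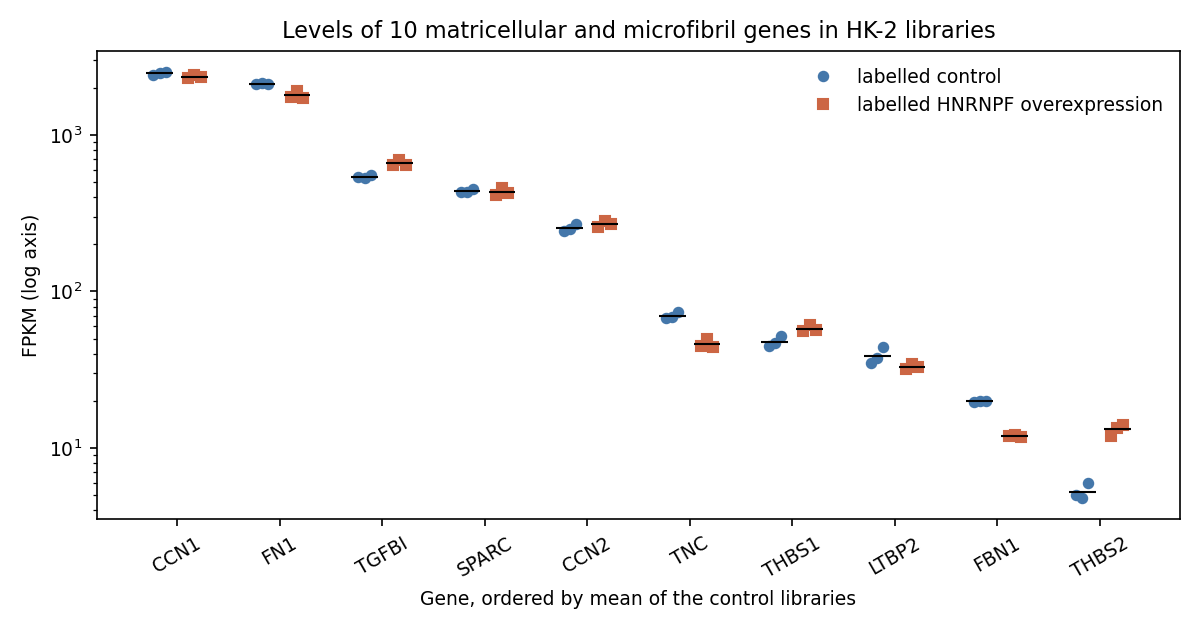
FPKM of each gene (vertical axis, log scale) in the 3 libraries labelled control (circles) and the 3 labelled HNRNPF overexpression (squares), with the group mean as a bar and genes ordered by the control mean. THBS2 is the gene with the widest gap between the groups, 4.79 to 5.97 against 12.01 to 14.07 FPKM, and the points of SPARC and CCN2 overlap.

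The comparison of the groups asked which of these genes differed between the libraries labelled HNRNPF overexpression and control. Changes went both ways. THBS2, THBS1 and TGFBI rose, FBN1, TNC and FN1 fell, and SPARC, CCN1, CCN2 and LTBP2 did not pass an adjusted p of 0.05. The 3 that rose compare with 11.3% of all 12461 genes tested that were called higher, and the 3 that fell with 13.1% called lower. No overlap between the groups was seen for 8 of the 10 genes, against 42.1% of all genes tested. The median log2 fold change of the 10 was -0.050, and that of all genes tested was -0.013. In bulk RNA, fewer cells that express a gene and less RNA per cell cannot be told apart.

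**Figure D2:**
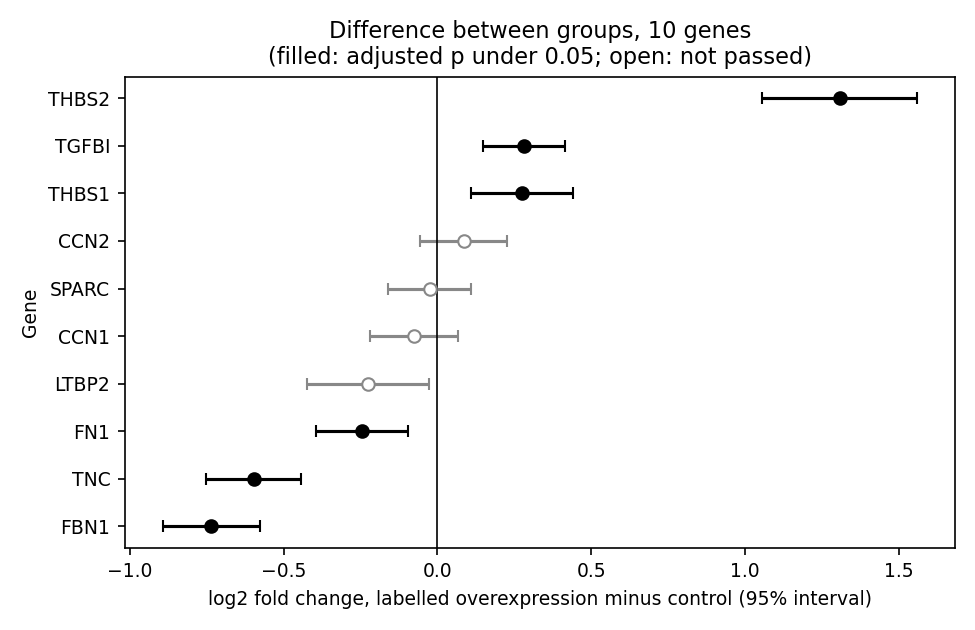
Log2 fold change (labelled overexpression minus control, horizontal axis) of each gene with its 95% interval from limma, filled where the adjusted p was under 0.05. THBS2 lies apart at 1.31, FBN1 and TNC are at -0.73 and -0.60, and the intervals of CCN2, SPARC and CCN1 include 0.

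The thrombospondins both rose, by different amounts. THBS2 (gene ID 7058, GRCh38.p14 chromosome 6, 169215785 to 169253846), which encodes a thrombospondin that limits angiogenesis, was at 5.03, 4.79 and 5.97 FPKM in the control libraries and at 12.01, 13.38 and 14.07 FPKM in those labelled overexpression. All 3 libraries of the latter lay above every control. THBS2 was 2.48-fold higher (log2 fold change 1.31, SE 0.112, limma adjusted p = 1.70e-04), and it was the only one of the 10 to rise by 2-fold or more, as did 0.514% of all genes tested. The call held under each of the 18 alternatives run, with log2 fold changes of 1.18 to 1.40.

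THBS1 (gene ID 7057, chromosome 15, 39581079 to 39599466), the platelet and stromal thrombospondin, was at 44.94, 46.49 and 52.15 FPKM in the control libraries and at 55.92, 61.08 and 56.63 FPKM in those labelled overexpression. The groups did not overlap, and control replicate 3 came closest to the other group. THBS1 was 1.21-fold higher (log2 fold change 0.28, SE 0.074, limma adjusted p = 0.0258). The call was lost when control replicate 1 (adjusted p = 0.0819) or 2 (0.105) or overexpression replicate 2 (0.0858) or 3 (0.0656) was left out, and with limma without trend (0.058). THBS1 overlaps FSIP1 and THBS1-AS1 on the opposite strand, and whether the counting used strand was not given in the sources used here. FSIP1 was at 0.35 to 0.84 FPKM. THBS1 also overlaps THBS1-IT1 on its own strand. THBS2, SPARC, TNC, CCN2, FBN1 and LTBP2 overlap long noncoding RNA genes on the opposite strand, and FBN1 another on its own strand. Of all these overlapping genes, only FSIP1 had values here.

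Within a library, the level of THBS2 was 0.112, 0.103 and 0.115 of that of THBS1 in the controls and 0.215, 0.219 and 0.249 of it in the libraries labelled overexpression. The log2 ratio rose from -3.19 ± 0.080 to -2.14 ± 0.114 (SD, n = 3 each; difference 1.05, two-sided exact permutation p = 0.1). This is the smallest p that 3 against 3 allows, and it was 0.1 after adjustment over the 3 pairs compared. THBS3, another thrombospondin, was at 15.25 to 16.16 FPKM in the controls and 13.16 to 14.02 FPKM in the other group (log2 fold change -0.19, limma adjusted p = 0.0901), and THBS4 and COMP were at 0.21 FPKM or less.

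Neither CCN1 nor CCN2 passed the test. CCN1 (gene ID 3491, chromosome 1, 85580761 to 85583950), an integrin ligand induced by serum and by stretch, was at 2423.81, 2477.76 and 2517.82 FPKM in the controls and at 2298.57, 2419 and 2324.33 FPKM in the libraries labelled overexpression. The groups did not overlap, and the gap between them was small beside their spread. Its limma adjusted p was 0.41 (log2 fold change -0.08, with a 95% interval of -0.22 to 0.068). CCN2 (gene ID 1490, chromosome 6, 131948176 to 131951372), also known as connective tissue growth factor, was at 242.01, 250.52 and 268.99 FPKM in the controls and at 258.52, 279.77 and 269.22 FPKM in the other group, ranges that overlap. Its limma adjusted p was 0.344 (log2 fold change 0.09, with a 95% interval of -0.056 to 0.23). 

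Genes within 5 Mb of CCN1 and of CCN2 were lower on the whole, with median log2 fold changes of -0.18 around each. With that shift removed, CCN2 was called higher (log2 fold change 0.26, limma adjusted p = 0.0231), and CCN1 turned to 0.10 without passing (limma adjusted p = 0.306). The ratio of CCN1 to CCN2 was 10.02, 9.89 and 9.36 in the controls and 8.89, 8.65 and 8.63 in the libraries labelled overexpression. All 3 of the former were above all 3 of the latter (difference of log2 ratios -0.16, two-sided exact permutation p = 0.1, the smallest possible). CCN3, a relative that in part opposes CCN2, was at 61.58 to 66.93 FPKM in the controls and rose to 74.3 to 80.93 FPKM (log2 fold change 0.29, limma adjusted p = 0.0125).

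**Figure D3:**
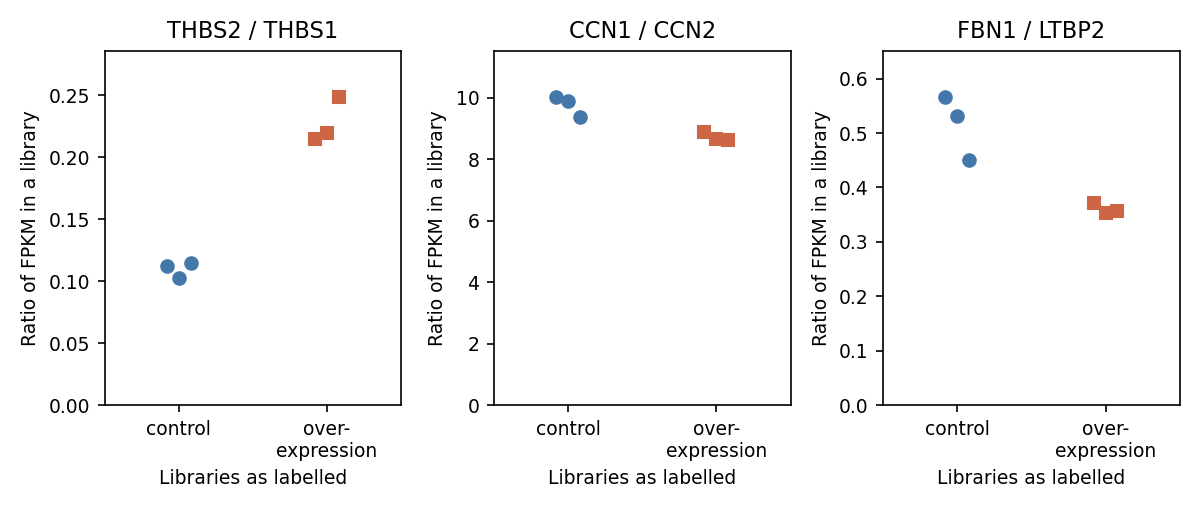
Ratio of the FPKM of 2 genes within each library (vertical axes from 0), for THBS2 to THBS1, CCN1 to CCN2 and FBN1 to LTBP2, with circles for the libraries labelled control and squares for those labelled overexpression. In each panel the groups do not overlap, from 0.103 to 0.115 against 0.215 to 0.249 for the thrombospondins. Each two-sided exact permutation p was 0.1, the smallest that 3 against 3 allows, and other pairs of genes were not compared.

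Of the other adhesion-modulating proteins, TNC fell, TGFBI rose and SPARC did not pass. TNC (gene ID 3371, chromosome 9, 115019575 to 115118157) encodes tenascin-C, a matrix protein of wounds and tumours. It was at 67.17, 69.09 and 73.44 FPKM in the controls and at 44.94, 49.38 and 44.22 FPKM in the libraries labelled overexpression, which all lay well below. TNC was 1.51-fold lower (log2 fold change -0.60, SE 0.069, limma adjusted p = 6.99e-04), with -0.68 to -0.52 over the 18 alternatives, all past the threshold.

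TGFBI (gene ID 7045, chromosome 5, 136028988 to 136063818) encodes an adhesion protein that TGF-beta induces, and binds collagens and integrins. It was at 540.7, 530.46 and 550.66 FPKM in the controls and at 638.71, 690.38 and 642.11 FPKM in the libraries labelled overexpression. The groups did not overlap, and overexpression replicate 2 was the highest. TGFBI was 1.21-fold higher (limma adjusted p = 0.0104; log2 fold change 0.28, SE 0.060), a call lost without control replicate 2 (0.0619).

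SPARC (gene ID 6678, chromosome 5, 151661096 to 151686915), or osteonectin, binds collagen and calcium. It was at 433.12, 434.44 and 448.27 FPKM in the controls and at 415.21, 457.2 and 422.38 FPKM in the other group, where replicate 2 lay above all controls and replicates 1 and 3 below. Its limma adjusted p was 0.797 (log2 fold change -0.02, with a 95% interval of -0.16 to 0.11).

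FN1 (gene ID 2335, chromosome 2, 215360865 to 215436068), fibronectin, was at 2107.91, 2147.02 and 2126.14 FPKM in the controls. It was at 1751.95, 1910.33 and 1726.45 FPKM in the libraries labelled overexpression, all lower, with replicate 2 nearest the controls. FN1 was 1.19-fold lower (log2 fold change -0.25, SE 0.067, limma adjusted p = 0.027). The call was lost when control replicate 1 (adjusted p = 0.0774) or 2 (0.116) or overexpression replicate 1 (0.073) or 3 (0.126) was left out, with no filter (0.0724) and with quantile scaling (0.22). Fibronectin and tenascin-C are made in several splice forms, and values per gene do not tell these apart.

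Of the microfibril genes, FBN1 fell and LTBP2 did not pass. FBN1 (gene ID 2200, chromosome 15, 48408313 to 48645709), the gene altered in Marfan syndrome, was at 19.7, 20 and 19.87 FPKM in the controls and at 11.88, 12.06 and 11.74 FPKM in the libraries labelled overexpression. The libraries of each group lay closer together than for any other of the 10 genes, with SDs of 0.15 and 0.16 FPKM. FBN1 was 1.66-fold lower (log2 fold change -0.73, SE 0.071, limma adjusted p = 2.87e-04). It passed in all 18 alternatives, with -0.74 to -0.63.

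LTBP2 (gene ID 4053, chromosome 14, 74498183 to 74612237) encodes a latent TGF-beta binding protein that attaches to fibrillin and, unlike its relatives, does not bind latent TGF-beta. It was at 34.8, 37.59 and 44.11 FPKM in the controls and at 32.04, 34.2 and 32.87 FPKM in the libraries labelled overexpression. The groups did not overlap, by a narrow margin, and control replicate 3 was the highest. Its limma adjusted p was 0.0909 (log2 fold change -0.23, with an unadjusted 95% interval of -0.43 to -0.027). It passed without control replicate 1 (0.0471) and with the trend on GC content, length and expression removed (0.0205), and it was -0.017 once the shift of genes within 5 Mb, a median of -0.21, was removed (limma adjusted p = 0.915). The ratio of FBN1 to LTBP2 was 0.566, 0.532 and 0.451 in the controls and 0.371, 0.353 and 0.357 in the libraries labelled overexpression. The difference of log2 ratios was -0.51 (two-sided exact permutation p = 0.1, the smallest possible).

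Relatives of these genes also moved both ways. The counts of each list from here on stand beside 11.3% of all 12461 genes tested called higher and 13.1% called lower. Of 19 other matricellular genes, 6 were tested, of which 1 rose and 2 fell, with a median log2 fold change of -0.25. SPOCK1, a SPARC-related proteoglycan, fell from 100.2 ± 5.12 to 71.1 ± 3.01 FPKM, and FSTL1, another SPARC relative, from 3.21 ± 0.485 to 1.97 ± 0.485 FPKM (SD, n = 3 each; limma adjusted p = 0.00129 and 0.0315). SPP1, osteopontin, was at 1888 to 2175 FPKM and 1744 to 1773 FPKM, which do not overlap, and did not pass (limma adjusted p = 0.0577). Periostin, POSTN, was listed at 0 in all 6 libraries.

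Of 26 other microfibril and elastic fibre genes, 18 were tested, of which 3 rose and 2 fell, with a median of 0.056. LOX, the lysyl oxidase that crosslinks elastin and collagen, rose from 52.7 ± 4.92 to 84.3 ± 7.13 FPKM, and LOXL4, a related oxidase, from 2.41 ± 0.0451 to 3.56 ± 0.228 FPKM (SD, n = 3 each; limma adjusted p = 0.00110 and 0.0179). MFAP2, a glycoprotein of the microfibril, fell (log2 fold change -0.54, limma adjusted p = 0.00358), as did LTBP1, which holds latent TGF-beta (-0.58, limma adjusted p = 0.0394). FBN2, the paralog of FBN1, was at 7.81 to 8.36 FPKM and 8.7 to 8.98 FPKM and did not pass (its log2 fold change was 0.13, with a 95% interval of -0.061 to 0.33).

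Of 20 receptors of these proteins, 14 were tested. None was called higher and 3 were called lower, with a median of 0.025. The fallen genes were integrin subunits: ITGB1 (log2 fold change -0.29), ITGAV (-0.24), which pairs with several beta chains to bind fibronectin, and ITGA6 (-0.43), a laminin receptor chain. CD47, a thrombospondin receptor, was at 129 to 171 FPKM in the controls and 124 to 138 FPKM in the other group, and CD36, another, at 0.19 FPKM or less.

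Of 20 other YAP and TEAD target genes, all tested, 3 rose and 7 fell, with a median of -0.021. Over all genes tested, 11.3% were called higher and 13.1% lower. ANKRD1, a nuclear ankyrin repeat protein, fell from 88.9 ± 8.52 to 51.4 ± 2.58 FPKM (SD, n = 3 each; limma adjusted p = 3.67e-04). FOXF2, a forkhead factor, and TGFB2, a TGF-beta ligand, fell too (log2 fold changes -0.80 and -0.54), while FJX1 rose (0.61). Of 23 TGF-beta and SMAD target genes, 22 were tested, of which 4 rose and 2 fell, with a median of 0.013. TAGLN fell by 1.51 on the log2 scale. COL1A1 (0.64), PLOD2 (0.44), which hydroxylates collagen lysines, and ID1 (0.39) rose.

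**Figure D4:**
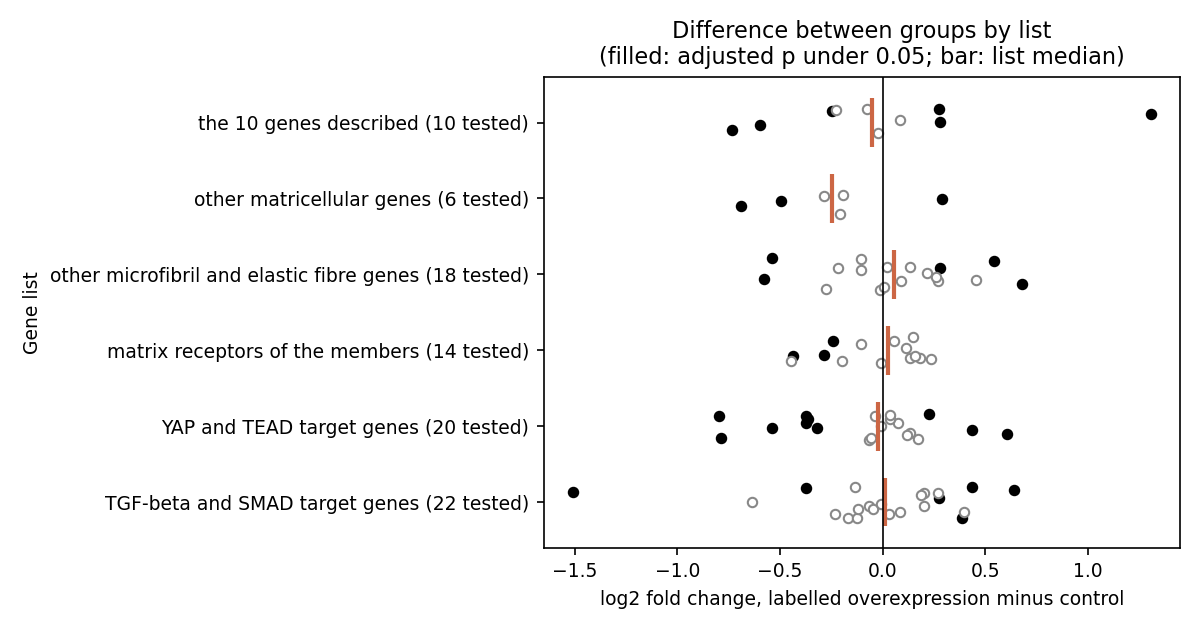
Log2 fold change (labelled overexpression minus control, horizontal axis) of each tested gene of the 6 lists (vertical axis), filled where the adjusted p was under 0.05, with the list median as a bar. Each list median lies between -0.25 and 0.056, and filled points lie on both sides of 0 in 5 of the lists, all but the receptors.

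Many markers of other cell types were at or near 0, while others, among them CD68, EGFL7 and LUM, were expressed. Of 12 fibroblast and mesangial markers, POSTN and PDPN were at 0 in all libraries and COL1A2 at 0.03 FPKM or less. The summed level of the 12 was 15.26 to 16.95 FPKM in the controls and 18.0 to 18.5 FPKM in the libraries labelled overexpression, most of it from LUM and COL1A1. Of 10 endothelial markers, KDR was at 0 in all libraries, and ESAM rose (log2 fold change 1.00). The endothelial sum was 36.8 to 41.5 and 44.5 to 52.1 FPKM, most of it from EGFL7. Of 10 immune markers, PTPRC was at 0.04 FPKM or less and MS4A1 at 0, and the sum, most of it the lysosomal CD68, was 170 to 186 and 200.1 to 223 FPKM. CSF1R, a macrophage receptor, rose (log2 fold change 0.84). Of 16 tubule epithelial markers, 11 were tested, of which GGT1 rose (0.47) and KRT7 (-0.36) and KRT18 (-0.20) fell. The sums of the fibroblast, endothelial and immune markers moved in the direction of THBS2, while their members did not all do so. Mean LUM went from 10.42 to 9.79 FPKM and mean COL1A1 from 4.73 to 7.34 FPKM (limma adjusted p = 0.64 and 0.0116). EGFL7 and CD68, which made up most of the endothelial and immune sums, were higher without passing (limma adjusted p = 0.0906 and 0.053). Apart from the levels given, the part of these markers in the rise of THBS2 was not tested.

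The genes most like THBS2 over the 6 libraries, by Pearson's r of log2(FPKM + 0.1), were CFB (r = 0.999), NR1D1 (0.998) and VPS11 (0.997). CFB, complement factor B, went from 13.8, 13.16 and 14.95 FPKM in the controls to 23.93, 24.59 and 25.32 FPKM. Those most like FBN1 were GSDME, ATF2 and PTK7. GSDME, which encodes a gasdermin, went from 57.97, 58.3 and 57.44 FPKM to 37.96, 38.22 and 37.11 FPKM. With 6 libraries in 2 groups such values mostly express the split by group: 497 tested genes had an r over 0.95 with THBS2 and 534 with FBN1.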

How the data were processed

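The libraries were stranded, paired-end and made from poly(A)-selected RNA. Per the study's methods, reads were trimmed with FASTX-Toolkit, aligned to GRCh38 with HISAT2, and uniquely mapped reads were counted. The authors deposited FPKM, 1 column per library, rounded to 2 decimals. HISAT2 and DESeq2 stand in the submitters' processing notes without versions. The annotation was not given in the sources used here. Batch correction with ComBat_seq is named, without saying whether it entered these values. FPKM corrects for length and library size, not for the makeup of a library.

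Groups and replicate numbers came from the titles. As counts were not used here, the DESeq2 test of the study was replaced by limma 3.58.1 (lmFit, eBayes with trend, R 4.3.3) on log2(FPKM + 0.1) of the 12461 genes whose mean FPKM over the 6 libraries reached 1. The tests were two-sided, and p-values were adjusted by Benjamini-Hochberg across these genes. Fold changes on the log2(FPKM + 0.1) scale are too small for genes of low level. Ratios within a library were compared by exact permutation tests (scipy 1.17.1). Gene symbols matched the RefSeq table of GRCh38.p14 for 20366 of 20442 genes. The longest coding transcript in GENCODE gave GC content and length. The limma step was run on values simulated under its own model, which checks the code and not whether these FPKM meet that model. Figures used matplotlib 3.10.9.

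At the best fitting depth, 52.1% to 62.2% of low values of short genes with 1 exon lay within 0.15 of a whole fragment, so the FPKM did not give back a depth and counting intervals are left out. The 10 genes, the lists of relatives and markers and the tests were chosen with earlier results of these data known. The text names all 10, HNRNPF, and from each list up to 4 genes that passed an adjusted p of 0.05, taken by size of change. It also names the 3 genes most like the largest rise and the largest fall, and the genes that overlap THBS1. Others (THBS3, THBS4, COMP, SPP1, POSTN, FBN2, CD47, CD36, KRT8, PAX8, CD68, EGFL7, LUM and the markers at or near 0) were named for their role or level after their values were seen.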

Additional observations from a re-analysis of the deposited data

How the results depend on the processing

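The alternatives were a pseudocount of 1 or 0.01, a mean FPKM of at least 5 or no filter, scaling by median of ratios, by quantiles or to TPM, limma with no trend or with robust estimation, a replicate block, removal of a trend on GC content, length and expression, removal of the median shift of genes within 5 Mb, and leaving out each library. Of 180 log2 fold changes of the 10 genes, 158 had the same sign and the same call, 13 lost the call, 3 gained it and 6 changed sign. Those that turned did not pass either way: SPARC with quantile scaling (0.071), TPM scaling (0.012), the GC, length and expression trend removed (0.030) and without 1 library (range over libraries -0.067 to 0.0029), and CCN1 with quantile scaling (0.12) and the neighbour shift removed (0.10). The cause was not tested. THBS2, TNC and FBN1 passed in all 18. Leaving out a library gave 1 to 3 genes called higher and 2 to 3 lower of the 10, with 1 higher without control replicate 2, and 1259 to 4244 called over all genes, against 3039. Removing the neighbour shift gave 1994. The replicate block gave 3115 over all genes, and 3 higher and 2 lower of the 10, with FN1 lost (limma adjusted p = 0.061). Deviations of libraries with the same number correlated at 0.091, -0.086 and 0.006, which gives no pairing by number, and the best match of a library was not always the one with its own number. Depth was not recovered from the FPKM. The study lists the reads of each of its glucose and mannitol libraries, but the labels do not say which of those these 6 are. What depth limits was not measured.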
